A study of Mus musculus with 6 samples.

Results

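The genes examined here encode the heterotrimeric G proteins, which relay signals from G protein-coupled receptors (GPCRs), and the regulators of G protein signaling (RGS), which switch those signals off. Members were chosen by symbol: the α subunit genes Gnas, Gnaz, Gnaq and Gnal and those named Gna, Gnai, Gnao or Gnat with a number, the β and γ subunit genes named Gnb or Gng with a number, and the genes named Rgs with a number. This rule found 44 of the 18943 genes in the table, namely 14 Gα, 5 Gβ, 9 Gγ and 16 RGS genes. A further 8 genes of these families, Gnat1, Gna15, Gng3, Rgs1, Rgs13, Rgs18, Rgs21 and Rgs22, were not listed in the table used here and were not analysed.

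The cells were muscle stem cells (MuSCs), the resident stem cells of skeletal muscle, sorted by flow cytometry from wild-type (WT) C57BL/6 mice aged 8 weeks and then kept in culture for 5 days. During culture they received DMSO, the solvent that served as the control, or 100 nM of either endothelin-3 (ET-3) or neurotensin (NT), peptide ligands of GPCRs, as the sample labels state. The methods of the study give higher concentrations for both peptides. Each of the 3 groups holds 2 libraries here, and nothing in the labels ties a library to an animal or a separate culture, so the p-values below measure the spread between libraries, which may be technical.

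A heterotrimeric G protein consists of a GTP-binding α subunit and a βγ dimer. Receptors load the α subunit with GTP, which frees both parts to act on effectors, and RGS proteins speed up GTP hydrolysis and thereby end the signal. Gα subunits fall into classes by what they act on: Gs stimulates adenylyl cyclase, the Gi/o group inhibits it, Gq/11 activates phospholipase C-β, and G12/13 activates guanine nucleotide exchange factors (RhoGEFs) upstream of RhoA. Receptors for endothelin and neurotensin couple through more than one of these classes, and the study behind these data inactivated genes of the G12/13 and Gq/11 classes to ask which of them keeps MuSCs quiescent. The comparisons asked how transcripts of the whole G protein machinery differed between cells cultured with a ligand and cells cultured with the solvent.

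Values are read counts on the exons of each gene, multiplied by 1 factor per library and rounded to whole numbers. They summed to between 4214458 and 4600575 per library and correspond to between 3629104 and 5396233 counted reads, which puts the counting error of a gene at a value of 100 between 8.84% and 10.9%. The label of the cells fitted the values in part: 10 of 10 MuSC marker genes were listed, with summed values of 6830 to 8484 in every library, whereas Calcr stayed between 0 and 3 and Chodl between 2 and 7. Within that sum Pax7 went from 857 and 1070 with DMSO to between 1599 and 1754 with a ligand, Cdh15 from 1547 and 1746 to between 436 and 496, and Spry1 from 269 and 292 to between 119 and 137. The summed markers of differentiating myocytes were 15789 and 17475 with DMSO and between 402 and 548 with either ligand. Endothelial markers, of which 4 of 7 were listed, summed to 24 and 12 with DMSO and between 85 and 107 with a ligand, for the most part through Tek at 2 and 1 against 42 to 70. Fibroadipogenic markers, of which 4 of 5 were listed, summed to 204 and 211 against 70 to 97. Col1a1 fell from 148 and 146 to between 2 and 8, and Dcn from 9 and 17 to between 0 and 2. In contrast Pdgfra had 20 and 30 with DMSO against 26 to 44, and Ly6a 27 and 18 against 37 to 52. Leukocyte markers, of which 3 of 6 were listed, summed to 35 and 34 without a ligand, against 21 to 45 under either peptide. Their members moved apart: Itgam fell from 14 and 7 to 0 in every ligand library, and Csf1r from 6 and 13 to between 4 and 5. Cd68, by contrast, went from 15 and 14 to between 16 and 41. Schwann cell markers, of which 3 of 5 were listed, summed to 67 in each DMSO library. Both ET-3 sums were lower, at 32 and 44, while the NT sums were 55 and 69. In bulk RNA, fewer cells of a type and less RNA per cell cannot be told apart, and the part of these differences in the results on G protein genes was not tested. The paired ET-3 libraries differed by no more than counting error, with a mean chi-square of 0.903 per gene, as did the paired NT libraries at 0.965, whereas the DMSO libraries differed by more, at 1.46. Calls are therefore also given with each treated pair averaged and treated as 1 sample.

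Of the 44 genes, 36 had a mean value of at least 5 and were tested with limma on log2(value + 1), a scale that understates the change of genes with low values. With ET-3, 13 of the 36 were higher than with DMSO and 10 were lower, counted where the adjusted p did not exceed 0.05. Among all 13921 tested genes, 30.6% were higher and 33.2% lower by this criterion. With NT, 10 were higher and 12 lower, against 29.7% and 32.5% of all tested genes. The G protein and RGS genes were therefore called about as often as genes in general, and their median log2 difference was 0.08 for ET-3 and 0.06 for NT, beside -0.01 for all tested genes in both comparisons. Both comparisons use the same 2 DMSO libraries.

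With each treated pair averaged, a ligand group held 1 sample and only the DMSO pair gave a spread. Fewer of all tested genes were called under this setting, and fewer of the G protein and RGS genes. The genes still called higher with ET-3 were Gnao1, Gna12, Gnb4, Rgs16 and Rgs19, and those still called higher with NT were Gnao1, Gna12, Gnb4, Rgs16 and Rgs19. The genes still called lower were Gnai1, Gnb3, Gnb5, Rgs4, Rgs5 and Rgs11 with ET-3, and Gnas, Gnai1, Gnb3, Rgs4 and Rgs5 with NT. Leaving out each library in turn likewise lowered the calls among all tested genes with either ligand, and the number of these genes called higher with ET-3.

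A difference of at least 2-fold was reached by 6 genes higher with ET-3 (Gnao1, Gnat2, Gnb4, Gng4, Gng10 and Rgs7) and by 6 lower (Gnb3, Gng11, Rgs3, Rgs4, Rgs5 and Rgs11), where 6.62% and 14.9% of all tested genes were called. With NT, 4 were at least 2-fold higher (Gnao1, Gnat2, Gnb4 and Gng10) and 5 lower (Gnb3, Rgs3, Rgs4, Rgs5 and Rgs11), where the corresponding shares of all tested genes were 7.3% and 13.2%. Of these genes, Gnat2 and Gng4 passed the filter only through their ligand libraries and Gnb3 and Rgs5 only through DMSO, so that a difference was built into their selection. Without the first or the second ET-3 library, fewer of them were called at least 2-fold higher with ET-3. Fewer of all tested genes were then called with ET-3 at any fold. The plot of log2 fold changes shows that the widest differences lay with RGS genes of the R4 family and with Gnb3, and that most Gα differences were under 2-fold.

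**Figure D1:**
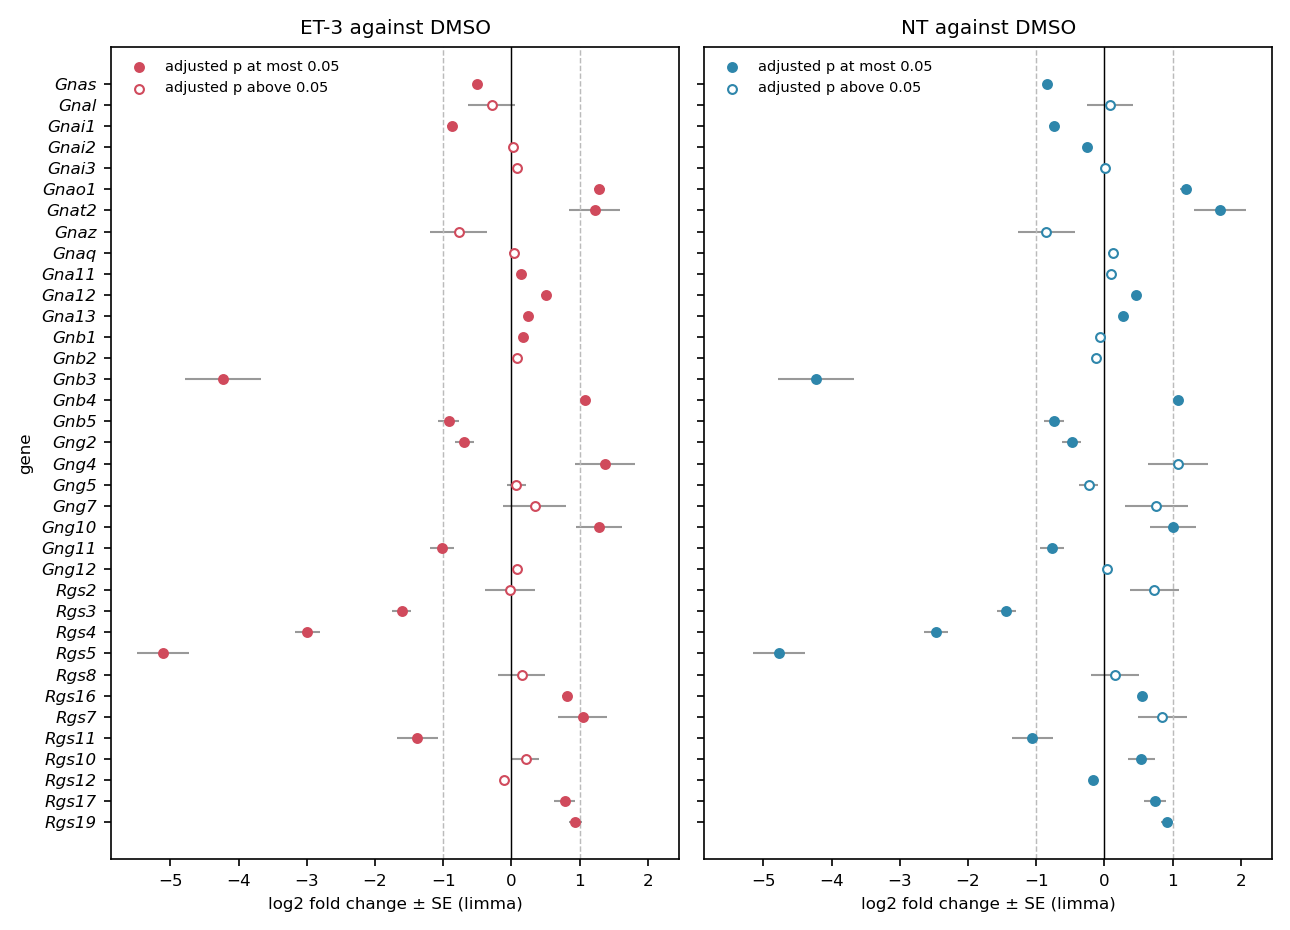
Log2 fold change (x axis) of the 36 tested genes (y axis) with ET-3 (left) or NT (right) against DMSO, with bars for the standard error from limma. Filled points passed an adjusted p of 0.05, open points did not, and dashed lines mark 2-fold. Rgs5, at -5.11 and -4.77, lies farthest to the left in both panels, and Gnao1, Gnat2, Gnb4, Gng4 and Gng10 lie past 1 in both.

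Of the 12 tested Gα genes, 5 were higher and 2 lower with ET-3, and 4 were higher and 3 lower with NT. The counts of this and the later families stand against the shares of all tested genes. Those were 30.6% higher and 33.2% lower with ET-3, and 29.7% and 32.5% with NT. Both members of the G12/13 class, the activators of RhoGEFs, rose with either ligand. Gna12 had values of 388 and 399 in the DMSO libraries, 603 and 522 in those with ET-3 and 541 and 547 in those with NT. Every ligand library lay above both DMSO libraries, and the log2 fold change was 0.51 (SE 0.07, adjusted p = 9.62e-05) with ET-3 and 0.47 (SE 0.07, adjusted p = 0.000191) with NT. On the transcript of Gna12, 13.3% of the exonic bases also belong to Amz1 on the opposite strand, whose values were between 7 and 17. Gna13 had 660 and 603 in the DMSO libraries, 774 and 727 in those with ET-3 and 781 and 756 in those with NT, again without overlap. Its log2 fold change was 0.25 (SE 0.06, adjusted p = 0.00336) with ET-3 and 0.28 (SE 0.06, adjusted p = 0.00161) with NT. The ET-3 call of Gna13 was lost without the second DMSO library (adjusted p = 0.052) or without the first ET-3 library (adjusted p = 0.0551).

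The Gq/11 class moved little. Gnaq had 618 and 574 in the DMSO libraries, 592 and 631 in those with ET-3 and 696 and 601 in those with NT, so that the groups overlapped. Its log2 fold changes of 0.04 (SE 0.07, adjusted p = 0.678) and 0.12 (SE 0.07, adjusted p = 0.183) did not pass the test. Gna11 had 635 and 652 in the DMSO libraries, 738 and 682 in those with ET-3 and 690 and 683 in those with NT. The DMSO libraries lay below all ligand libraries, while the NT values fell within the ET-3 range, and the log2 fold change was 0.14 (SE 0.05, adjusted p = 0.036) with ET-3 and 0.09 (adjusted p = 0.143) with NT. The ET-3 call of Gna11 did not hold without either DMSO library (adjusted p = 0.159 and 0.0893), without the first ET-3 library (0.219) or without either NT library (0.0717 and 0.0719). With libraries scaled to their totals, which moved the median of all genes to 0.10 for NT, Gnaq at 0.23 (adjusted p = 0.015) and Gna11 at 0.21 (adjusted p = 0.00399) passed the test with NT. Gna14, the remaining gene of this class, was not tested, with values of 1 to 5.

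Gnas, which encodes Gαs and had the highest value of all Gα genes before correction for length, fell with either ligand. Its values were 2302 and 2474 in the DMSO libraries, 1736 and 1611 in those with ET-3 and 1373 and 1297 in those with NT, so that the 3 groups were fully separate. The log2 fold change was -0.51 (SE 0.05, adjusted p = 2e-05) with ET-3 and -0.84 (SE 0.05, adjusted p = 6.59e-07) with NT. The Gnas locus (chromosome 2, 174284320 to 174346744 on GRCm38, plus strand) is imprinted and gives rise to several overlapping transcripts. The antisense gene Nespas, which shares 8.83% of the exonic bases of Gnas, had 62 and 58 with DMSO and between 1 and 6 with either ligand. Gm20721, also on the opposite strand, shares a larger part of Gnas, 13.1%, and had values of 286 and 371 in the DMSO libraries, 348 and 329 in those with ET-3 and 276 and 280 in those with NT. Gnal, the olfactory Gs-type subunit, ranged from 9 to 17 and did not pass the test.

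The Gi/o group held genes that moved in opposite directions. Gnai1 fell from 585 and 611 in the DMSO libraries to 304 and 352 under ET-3 and 353 and 364 under NT. The log2 fold change was -0.87 (SE 0.07, adjusted p = 3.37e-06) with ET-3 and -0.74 (SE 0.07, adjusted p = 1.15e-05) with NT. In contrast Gnao1, whose product Gαo is best known as an abundant subunit of neurons, rose from 110 and 120 to 282 and 283 under ET-3 and 262 and 266 under NT. The DMSO libraries lay far below all others, at a fold of 2.45 (log2 1.29, SE 0.08, adjusted p = 3.71e-07) for ET-3 and 2.29 (log2 1.19, SE 0.08, adjusted p = 6.79e-07) for NT. Gnao1 lies on chromosome 8 at 93809966 to 93969388 on GRCm38, plus strand.

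The other genes classed with the Gi/o group changed less than Gnai1 and Gnao1 or were rare. Gnai2, the most abundant Gα gene per kb of exonic length with DMSO, had 1052 and 1164 with DMSO and 1132 and 1129 with ET-3, a log2 fold change of 0.03 that did not pass the test (adjusted p = 0.669). With NT its values were 969 and 893, and the log2 fold change of -0.25 passed (SE 0.06, adjusted p = 0.00398), but not without the second DMSO library (adjusted p = 0.0761) or the second NT library (0.0662). Gnai3 ranged from 786 to 877 over all libraries and passed in neither comparison, although it was called higher when libraries were scaled to their totals (adjusted p = 0.00591 with ET-3 and 0.036 with NT). Gnat2, the α subunit of cone transducin, had 5 and 3 in the DMSO libraries, 12 and 9 in those with ET-3 and 13 and 17 in those with NT. It was called higher at log2 1.22 (SE 0.38, adjusted p = 0.0171) and 1.7 (SE 0.38, adjusted p = 0.00302), although it passed the filter only through its ligand libraries, and the ET-3 call was lost without the second DMSO library (adjusted p = 0.0715) or the first ET-3 library (0.0885). Gnaz had 8 and 8 with DMSO and between 3 and 6 with the ligands, and did not pass.

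**Figure D2:**
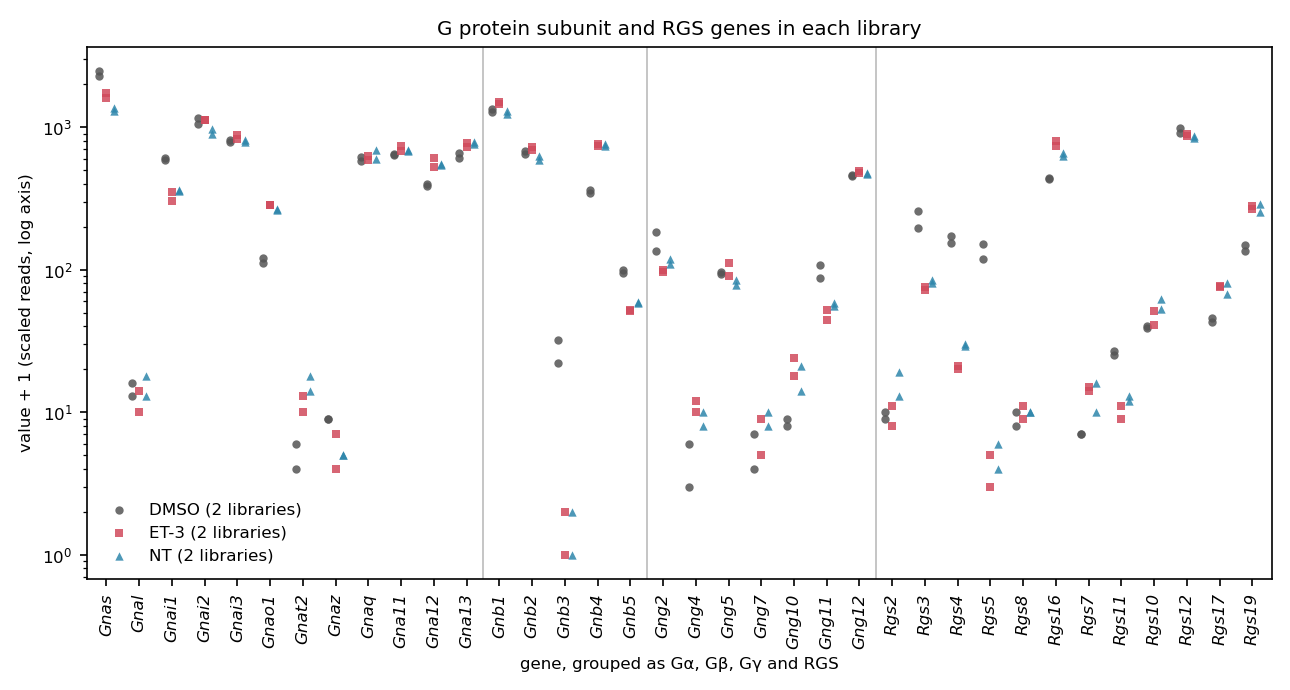
Value plus 1 on a log axis (scaled reads) for each of the 36 tested genes in each of the 6 libraries, with genes on the x axis grouped as Gα, Gβ, Gγ and RGS. Circles are DMSO, squares ET-3 and triangles NT libraries. Paired libraries of a group lie close together except at low values, and Gnb3 and Rgs5 show the widest gaps between DMSO and ligand libraries.

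The Gβ genes encode the propeller-shaped partner of Gγ, and of the 5 tested, 2 were higher and 2 lower with ET-3 and 1 higher and 2 lower with NT. Gnb1, the most abundant β gene per kb in every group, had 1288 and 1346 in the DMSO libraries, 1495 and 1460 in those with ET-3 and 1296 and 1229 in those with NT. It was slightly higher with ET-3 at log2 0.17 (SE 0.05, adjusted p = 0.00956), a call that was lost without the first DMSO library (adjusted p = 0.0818) or the first ET-3 library (0.0798), and did not pass with NT at -0.06 (adjusted p = 0.273). Gnb4 rose from 347 and 363 in the DMSO libraries to 764 and 743 under ET-3 and 764 and 735 under NT. The ligand libraries lay at roughly the same level and far above DMSO, with folds of 2.12 (log2 1.08, SE 0.05, adjusted p = 5.89e-08) and 2.11 (log2 1.08, SE 0.05, adjusted p = 6.99e-08). Gnb4 is on chromosome 3 at 32580332 to 32616585 on GRCm38, minus strand.

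Gnb3, a β subunit known from cone photoreceptors, was at or near 0 in the ligand libraries. It lies on chromosome 6 at 124834240 to 124840275 on GRCm38, minus strand. Gnb3 had 21 and 31 in the DMSO libraries, 0 and 1 in those with ET-3 and 0 and 1 in those with NT, and it passed the filter on low values through its DMSO libraries alone. The fitted log2 fold change of -4.23 (SE 0.56) passed the test for ET-3 (adjusted p = 8.74e-05) and NT (adjusted p = 9.16e-05), but its size depends on the pseudocount. As reads, 48 were counted over the DMSO libraries and 1 over each treated pair, a level 44.6-fold lower with ET-3 (95% interval 7.63 to 1800) and 62.2-fold lower with NT (10.6 to 2510), where the intervals cover counting error only.

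Gnb5, which pairs with RGS proteins of the R7 family rather than with a conventional Gγ, fell from 99 and 94 in the DMSO libraries to 51 and 50 under ET-3 and 58 and 57 under NT. All ligand libraries lay below both DMSO libraries, at log2 -0.92 (SE 0.15, adjusted p = 0.000365) and -0.74 (SE 0.15, adjusted p = 0.00161). Gnb2 ranged from 590 to 724 over all libraries and passed in neither comparison (adjusted p = 0.177 with ET-3 and 0.0516 with NT). For NT the log2 fold change of Gnb2 was -0.13 and lay so near the threshold that it passed with a pseudocount of 5 (adjusted p = 0.048), a minimum mean of 20 (0.0416) or voom weights (0.0395).

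Among the 7 tested Gγ genes, whose products anchor the dimer in the membrane, 2 rose and 2 fell with ET-3, and 1 rose and 2 fell with NT. Gng11 and Gng12 were the most abundant per kb. Gng12 ranged only from 457 to 494 and passed in neither comparison (adjusted p = 0.183 and 0.5), though it did when libraries were scaled to their totals (0.013 with ET-3 and 0.0222 with NT). Gng11 fell from 86 and 107 in the DMSO libraries to 43 and 51 under ET-3 and 55 and 57 under NT. No ligand library reached the lower DMSO value, and the log2 fold change was -1.02 (SE 0.18, adjusted p = 0.000552) with ET-3 and -0.77 (SE 0.18, adjusted p = 0.00345) with NT. The NT call of Gng11 was lost without the second DMSO library (adjusted p = 0.0529). Gng2 fell as well, from 182 and 135 to 99 and 95 under ET-3 and 108 and 117 under NT, at log2 -0.69 (SE 0.14, adjusted p = 0.00193) and -0.48 (SE 0.14, adjusted p = 0.0152). The DMSO values of Gng2 lay far apart, and its NT call was lost without the first DMSO library (adjusted p = 0.109) or either NT library (0.12 and 0.0623).

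The Gγ genes that rose were rare. Gng10 had 7 and 8 in the DMSO libraries, 17 and 23 in those with ET-3 and 20 and 13 in those with NT, a log2 fold change of 1.29 (SE 0.34, adjusted p = 0.00692) and 1.01 (SE 0.34, adjusted p = 0.0238). Its ET-3 call was lost without the first DMSO library (adjusted p = 0.0608) or the second ET-3 library (0.0538), and its NT call without either DMSO library (0.111 and 0.0789) or the first NT library (0.164). Gm20503 shares 72.0% of the exonic bases of Gng10 on the same strand, so that its values rest on the remaining bases wherever reads on several genes were left out. Gng4 had 2 and 5 in the DMSO libraries, 11 and 9 in those with ET-3 and 7 and 9 in those with NT, at log2 1.37 (SE 0.44, adjusted p = 0.0193) and 1.08 (SE 0.44, adjusted p = 0.0543). The ET-3 call of Gng4 was lost without the first DMSO library (0.0632) or either ET-3 library (0.1 and 0.0564), and the NT difference passed without the second DMSO library (0.015). The DMSO values of Gng4 lie below the minimum mean, so that it was tested only because its ligand values were higher. Gng5 (77 to 110) and Gng7 (3 to 9) passed in neither comparison.

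Because reads on a gene increase with its length, the makeup of each subunit pool was compared on values per kb of exonic length, as a description without a test. The Gi/o group held 52.2% of the summed Gα value with DMSO, compared to 49.6% under ET-3 and 48.7% under NT. Without length correction this order turned, with 36.1% under DMSO and 37.6% and 37.3% under the ligands. The share of G12/13 was 15.0% with DMSO, with libraries at 15.4% and 14.5%, against 20.1% with ET-3, with libraries at 20.8% and 19.4%, and 21.3% with NT, with libraries at 21.0% and 21.6%. Gs moved the other way, from 15.0% to 10.8% and 9.21%, and Gq/11 went from 17.8% to 19.5% and 20.8%. Gnas has a long union of exons, and without length correction Gs held 32.9%, 24.3% and 21.2% of the pool, with the same order of groups. In the Gβ pool, the share of Gnb4 went from 4.88% with DMSO to 9.42% with ET-3 and 10.7% with NT, and Gnb1 stayed between 53.5% and 55.2% in every library. In the Gγ pool, Gng11 went from 36.8% to 21.7% and 25.2%, and Gng12 from 34.0% to 43.4% and 41.2%. Without length correction these were 11.7%, 6.13% and 7.34% for Gng11 and 55.3%, 63.0% and 61.7% for Gng12, in the same order of groups.

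**Figure D3:**
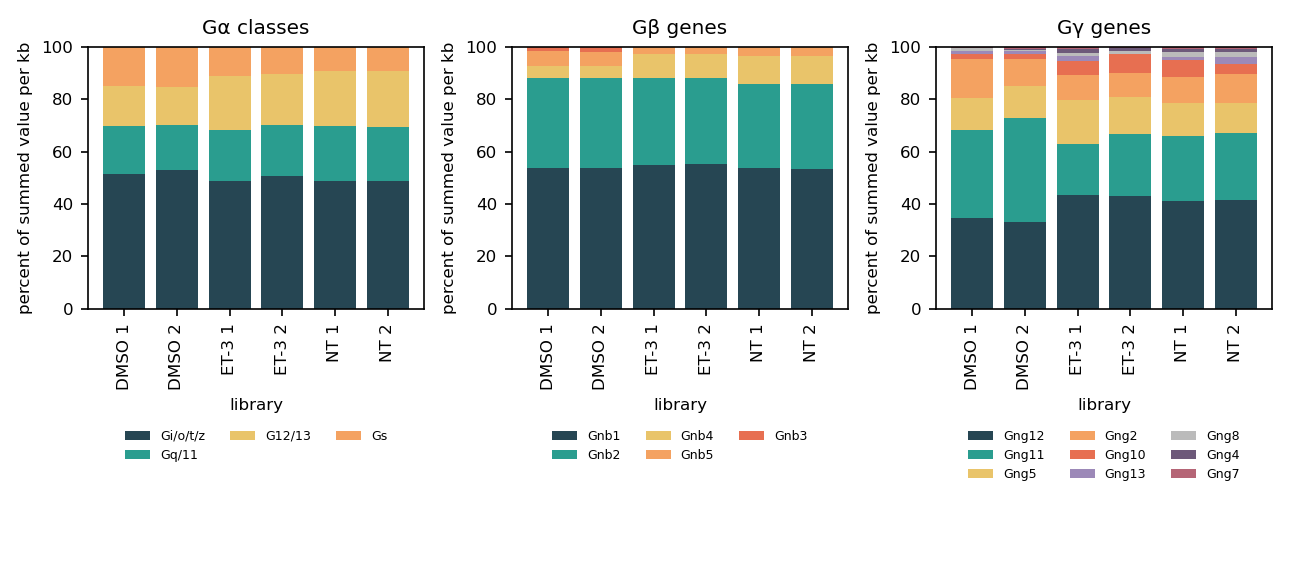
Percent of the summed value per kb of exonic length (y axis) held by each Gα class, Gβ gene and Gγ gene in each of the 6 libraries (x axis). With DMSO, G12/13 held 15.4% and 14.5% of the Gα pool, and with a ligand between 19.4% and 21.6%.

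Of the 12 tested RGS genes, 4 were higher and 4 lower with ET-3, and 4 higher and 5 lower with NT. Those of the R4 family encode small proteins that act mainly on the Gi/o and Gq/11 classes, and they held the widest differences. Rgs5, known as a marker of pericytes, had 117 and 150 in the DMSO libraries, 4 and 2 in those with ET-3 and 3 and 5 in those with NT. The ligand libraries were near 0, at log2 -5.11 (SE 0.38, adjusted p = 1.41e-06) and -4.77 (SE 0.38, adjusted p = 2.47e-06), and like Gnb3 the gene passed the filter through DMSO alone. Rgs4, known from neurons and heart, fell from 154 and 171 in the DMSO libraries to 19 and 20 under ET-3 and 29 and 28 under NT. The groups were separate, at log2 -2.99 (SE 0.18, adjusted p = 4.03e-07) and -2.47 (SE 0.18, adjusted p = 1.66e-06). Rgs3 (chromosome 4, 62559847 to 62704001, plus strand) had 194 and 256 in the DMSO libraries, 71 and 74 in those with ET-3 and 83 and 80 in those with NT, at log2 -1.61 (SE 0.14, adjusted p = 5.05e-06) and -1.44 (SE 0.14, adjusted p = 1.18e-05).

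The summed markers of smooth muscle and pericytes, with Rgs5 left out of the list, moved with these genes. All 7 of 7 markers were listed, and their summed value was 3312 and 3713 with DMSO and between 808 and 1001 with either ligand. Abcc9 went from 851 and 835 to between 0 and 4, Pdgfrb from 227 and 278 to between 3 and 13, and Notch3 from 1397 and 1773 to between 284 and 409. Mcam went from 222 and 213 to between 60 and 80, whereas Cspg4 differed less, with 610 and 612 with DMSO and between 433 and 509 with a ligand. Kcnj8 and Myh11, in contrast, were near 0 everywhere, at 0 to 2 and 0 to 4. The part of these markers, or of the myocyte markers given above, in the fall of Rgs3, Rgs4 and Rgs5 was not tested.

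Within the same family, Rgs16 rose. It was the most abundant RGS gene per kb in every group, with values of 438 and 434 in the DMSO libraries, 799 and 736 in those with ET-3 and 623 and 654 in those with NT. The groups did not overlap, and the fold was 1.76 (log2 0.81, SE 0.06, adjusted p = 7.9e-07) with ET-3 and 1.46 (log2 0.55, SE 0.06, adjusted p = 1.36e-05) with NT. Rgs16 had 37.0% of the summed RGS value per kb with DMSO, compared to 53.5% under ET-3 and 48.3% under NT, while Rgs4 went from 10.4% to 1.03% and 1.63%. Without length correction, Rgs16 had 19.9%, 35.0% and 31.0%. Rgs2 (7 to 18) and Rgs8 (7 to 10) passed in neither comparison.

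**Figure D4:**
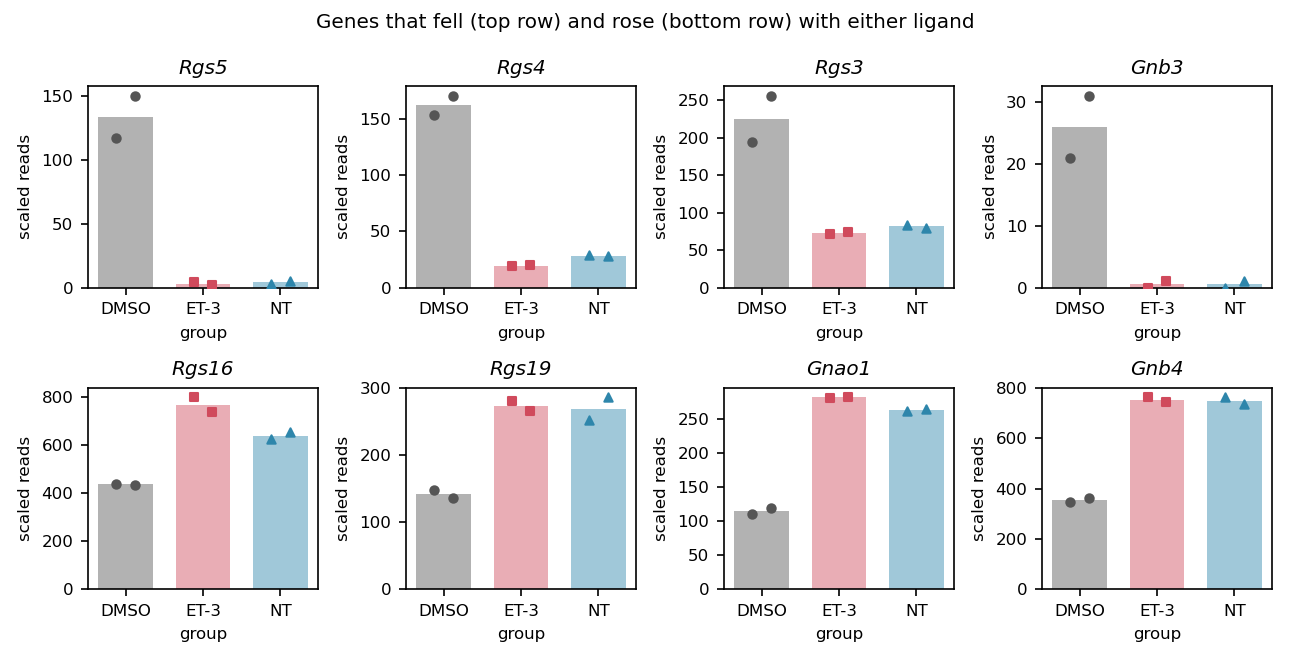
Values (y axis, scaled reads, from 0) by group (x axis) of 4 genes that fell with either ligand (top) and 4 that rose (bottom), with points for the 2 libraries of a group and bars for their mean. Ligand libraries lie below both DMSO libraries in the top row and above both in the bottom row.

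Rgs4 and Rgs5, which fell most in this family, are neighbours on chromosome 1 on GRCm38, Rgs5 at 169655501 to 169695813 on the plus strand and Rgs4 at 169741477 to 169747642 on the minus strand, with 45.7 kb and 0 other protein-coding genes between them. Rgs16 (153740349 to 153745468) and Rgs8 (153653025 to 153700323) form a second pair on the plus strand of chromosome 1, 40.0 kb apart, of which only Rgs16 passed the test. Rgs3, which also fell, is left out of the start regions below, which were picked by these results. Start regions of the pair that fell and of the gene that rose are shown because these genes moved in opposite directions within 1 family. They run from 250 bases before to 50 bases after the RefSeq start on GRCm38.p6, read on the strand of the gene, with each E-box (CANNTG, which reads alike on both strands and is the motif bound by myogenic factors such as MyoD and myogenin) in capitals.
Rgs5 (chr1:169655251-169655550, plus strand): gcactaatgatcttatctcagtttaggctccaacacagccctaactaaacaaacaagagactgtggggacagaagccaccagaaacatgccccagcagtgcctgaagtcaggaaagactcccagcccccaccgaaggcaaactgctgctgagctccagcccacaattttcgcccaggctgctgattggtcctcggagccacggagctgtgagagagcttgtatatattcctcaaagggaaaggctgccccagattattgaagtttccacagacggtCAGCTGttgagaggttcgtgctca
Rgs4 (chr1:169747593-169747892, minus strand): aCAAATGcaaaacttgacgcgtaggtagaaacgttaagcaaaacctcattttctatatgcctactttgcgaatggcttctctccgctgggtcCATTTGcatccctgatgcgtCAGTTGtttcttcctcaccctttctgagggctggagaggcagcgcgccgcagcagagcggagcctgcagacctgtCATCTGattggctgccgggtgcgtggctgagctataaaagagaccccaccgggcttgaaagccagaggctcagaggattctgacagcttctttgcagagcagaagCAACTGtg
Rgs16 (chr1:153740103-153740402, plus strand): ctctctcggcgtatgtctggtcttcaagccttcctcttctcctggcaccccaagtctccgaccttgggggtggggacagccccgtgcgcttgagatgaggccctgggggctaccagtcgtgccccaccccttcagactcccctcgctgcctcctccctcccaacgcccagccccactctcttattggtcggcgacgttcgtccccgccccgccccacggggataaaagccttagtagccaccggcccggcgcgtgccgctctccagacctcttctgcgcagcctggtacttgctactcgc

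The Rgs4 window holds 5 matches to CANNTG, the Rgs5 window 1, which is CAGCTG and begins 26 bases downstream of the start, and the Rgs16 window 0. At least 1 match was present in 72.3% of all 32851 RefSeq windows of the same length, 5 or more in 2.1%, and CAGCTG in 16.3%. The cyclic AMP response element TGACGTCA, which reads alike on both strands, was present in 1.79% of all windows and in none of the 3 shown. A match to these letters is a description of the window and not of binding. Of the 44 genes, 35 had a window in the RefSeq set used here, in 48 windows, of which 33 held CANNTG. Windows on chromosome 18, where Gnal lies, were left out of these member counts, a limit not set on the 32851 windows.

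In the other RGS families no tested gene differed as much as Rgs3, Rgs4 or Rgs5, though some differed more than Rgs16. Both tested genes of the RZ family, which acts on Gαz and other inhibitory subunits, rose. Rgs19 had 148 and 135 in the DMSO libraries, 280 and 266 in those with ET-3 and 252 and 286 in those with NT, at log2 0.94 (SE 0.09, adjusted p = 7.76e-06) and 0.92 (SE 0.09, adjusted p = 9.82e-06). Rgs17 rose from 42 and 45 to 76 and 75 under ET-3 and 67 and 80 under NT, at log2 0.78 (SE 0.16, adjusted p = 0.00193) and 0.74 (SE 0.16, adjusted p = 0.00287). Neither gene had a DMSO library that reached a ligand library.

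The R7 family, whose members bind Gβ5, split. Rgs11 fell from 24 and 26 in the DMSO libraries to 8 and 10 under ET-3 and 11 and 12 under NT, at log2 -1.38 (SE 0.3, adjusted p = 0.00238) and -1.06 (SE 0.3, adjusted p = 0.0112), and the NT call was lost without the first NT library (adjusted p = 0.0547). Rgs7 had 6 and 6 in the DMSO libraries, 14 and 13 in those with ET-3 and 15 and 9 in those with NT. It passed with ET-3 at log2 1.05 (SE 0.36, adjusted p = 0.0259) and not with NT at 0.85 (adjusted p = 0.0607), and the ET-3 call was lost without any 1 of the 4 libraries compared (adjusted p = 0.066 to 0.0891), while the NT difference passed without the second NT library (0.0383).

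In the R12 family, Rgs12 was the second most abundant RGS gene per kb with DMSO, with values of 986 and 917 in the DMSO libraries, 870 and 896 in those with ET-3 and 842 and 865 in those with NT. Its log2 fold change was -0.11 with ET-3 (adjusted p = 0.0838), which passed without the second DMSO library (0.0334), and -0.16 with NT (SE 0.05, adjusted p = 0.0194). The NT call was lost without the first DMSO library (0.0954) or either NT library (0.128 and 0.065), and with each library scaled to its total (-0.04, adjusted p = 0.479). Rgs10 had 38 and 39 in the DMSO libraries, 50 and 40 in those with ET-3 and 52 and 61 in those with NT, and passed only with NT at log2 0.54 (SE 0.2, adjusted p = 0.0378), a call that was lost without any 1 of the 4 libraries compared (0.0643 to 0.193).

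The 8 genes that were not tested had values of at most 10 in any library. Gnat3 had 4 and 2 with DMSO and 0 in all ligand libraries, Gng8 ranged from 2 to 8, Gng13 from 0 to 5, Rgs6 from 0 to 4, Rgs9 from 1 to 4, Rgs14 from 0 to 4 and Rgs20 from 0 to 10. When all genes were tested without a filter, Gnat3 was called lower with ET-3 (adjusted p = 0.0109) and with NT (adjusted p = 0.0115), on a few DMSO reads against none, and the other 7 passed in neither comparison. In Gng13, 51.6% of the exonic bases also belong to Chtf18 on the opposite strand.

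The 2 ligands were also compared directly, with fold changes that do not involve the DMSO values. Of the 36 genes, 4 were lower with NT than with ET-3 and 0 were higher by limma at the same threshold, where 2.05% and 0.647% of all tested genes were called, and 1 was higher at an unadjusted p under 0.05. The 4 were Gnas at log2 -0.33 (SE 0.05, adjusted p = 0.0379), Gnai2 at -0.28 (SE 0.06, adjusted p = 0.0424), Gnb1 at -0.23 (SE 0.05, adjusted p = 0.042) and Rgs16 at -0.26 (SE 0.06, adjusted p = 0.0424). In each of them both NT libraries lay below both ET-3 libraries, which adds no support, since they were called on these same libraries. Under several alternatives no call was left for these or for any other tested gene. These were any 1 of the 6 libraries left out, averaged pairs, no filter on low values, or only the ligand groups in the fit. Of the 36 genes, 0 reached 2-fold, which 0.0503% of all tested genes did upward and 0.0287% downward. Rgs4, with 19 and 20 against 29 and 28, differed by 0.53 and did not pass (adjusted p = 0.151).

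Genes acting beside or after the G proteins were followed in lists written from general knowledge, but with earlier results of these data known. Their counts stand against the shares of all tested genes given above, 30.6% higher and 33.2% lower with ET-3, and 29.7% and 32.5% with NT. Of the RhoGEFs bound by G12/13 and Rhoa, 4 genes in all, 2 were higher and 0 lower with each ligand. With ET-3 these were Arhgef11 and Rhoa, and with NT Arhgef11 and Arhgef12. Arhgef11 had 350 and 385 with DMSO, 480 and 525 with ET-3 (log2 0.45, SE 0.07, adjusted p = 0.000242) and 501 and 534 with NT (log2 0.49, SE 0.07, adjusted p = 0.000134). Arhgef12 rose with NT from 1298 and 1391 to 1558 and 1547, at log2 0.21 (SE 0.05, adjusted p = 0.00287). Rhoa itself had 629 and 655 with DMSO and 764 and 696 with ET-3, at log2 0.18 (SE 0.06, adjusted p = 0.0156), a call that was lost without either DMSO library (0.135 and 0.0665) or the first ET-3 library (0.134). With NT, Rhoa had 604 and 587, below both DMSO libraries, at log2 -0.11 (adjusted p = 0.119). The direct difference from ET-3 of -0.29 passed by limma in the main fit (SE 0.06, adjusted p = 0.0389). That call was lost without a filter on low values, with a replicate block or with only the ligand groups in the fit. Under each of these settings, 0 of all tested genes were called between the ligands. With each treated pair averaged, the calls of Arhgef11 (0.075 with ET-3 and 0.0711 with NT), Arhgef12 (0.145) and Rhoa (0.112) were lost.

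Of 10 tested second-messenger effectors, the adenylyl cyclases and phospholipases C-β, 3 were higher and 4 lower with each ligand, close to the shares of all tested genes. Adcy2 fell from 218 and 205 to 43 and 43 under ET-3 and 68 and 62 under NT (log2 -2.27 and -1.69, SE 0.13, adjusted p = 2.76e-07 and 2.37e-06). Adcy3 rose from 110 and 124 to 242 and 258 under ET-3 and 285 and 286 under NT (log2 1.09 and 1.28, SE 0.09, adjusted p = 2.21e-06 and 7.62e-07). The cyclases thus did not move in 1 direction. Adcy1 fell by 1.09 and 0.66 on the log2 scale (SE 0.1, adjusted p = 4.69e-06 and 0.000175).

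Of 6 tested receptor kinases and arrestins, which uncouple receptors from G proteins, 3 were higher and 2 lower with each ligand. Grk6 rose from 287 and 286 to 1155 and 1072 under ET-3 and 977 and 972 under NT (log2 1.95 and 1.76, SE 0.05, adjusted p = 2.16e-09 and 3.88e-09). Grk4 fell from 24 and 26 to 7 and 5, and 7 and 12 (log2 -1.91 and -1.35, SE 0.36, adjusted p = 0.00104 and 0.00829), where the NT call was lost without either DMSO library (0.0541 and 0.0676) or the first NT library (0.0701). Arrb1 fell from 101 and 100 to 45 and 47, and 64 and 53 (log2 -1.11 and -0.78, SE 0.16, adjusted p = 0.000174 and 0.00191).

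Of 10 tested chaperones and receptor-independent modulators of Gα and Gβγ, 3 were higher and 3 lower with ET-3, and 3 higher and 2 lower with NT. Ccdc88c, whose product Daple activates Gαi without a receptor, fell from 537 and 631 to 101 and 96 under ET-3 and 107 and 91 under NT (log2 -2.55 in both, SE 0.11, adjusted p = 3.59e-08 and 3.93e-08). Its relative Ccdc88a, which encodes Girdin, rose from 646 and 586 to 988 and 1039, and 1059 and 1117 (log2 0.72 and 0.82, SE 0.06, adjusted p = 2.58e-06 and 1.09e-06). The Gα chaperone gene Ric8a fell from 845 and 859 to 478 and 466, and 499 and 426 (log2 -0.85 and -0.88, SE 0.07, adjusted p = 3.05e-06 and 2.51e-06). Of 6 other genes whose products carry an RGS domain, 1 was higher and 2 lower with ET-3, and 2 higher and 1 lower with NT. The largest of these changes was that of Axin2, with 14 and 22 with DMSO and 2 and 4 with ET-3 (log2 -2.26, SE 0.42, adjusted p = 0.000917), while its 7 and 10 with NT did not pass (log2 -0.99, adjusted p = 0.0648). The ET-3 call of Axin2 was lost with averaged pairs (0.0652), and the NT difference passed with a pseudocount of 5 (0.0306), a replicate block (0.0468) or voom weights (0.0338).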

How the data were processed

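RNA-seq libraries of cultured MuSCs were grouped by their labels into DMSO, ET-3 and NT, with 2 libraries each, although the series text speaks of triplicates. Per the methods of the study, reads were aligned to mm10 with STAR and counted on exons with featureCounts, and reads that aligned to several regions or overlapped several genes were left out. The submitters' processing notes list Trimmomatic 0.38, STAR 2.7.7a, featureCounts 1.6.5 and DESeq2 1.30.0, while the methods name Reaper for trimming. The labels name a library kit that does not mark strand and the methods a stranded one, and the strand setting of the counting is not given in the sources used here, so that reads of a gene and of an antisense gene cannot be told apart.

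The deposited signal is whole numbers that behave as counts multiplied by 1 factor per library. In 3 libraries with factors of 1.15, 1.19 and 1.09, 37, 46 and 24 of the whole numbers examined cannot arise from a count, and 0 genes lay at them. In the others, factors of 0.983, 0.855 and 0.781 rest on how often each number occurs. Because the values are scaled, no count model was fitted, and limma 3.58.1 in R 4.3.3 (lmFit, contrasts, eBayes with a trend) was run on log2(value + 1) for all 6 libraries in 1 fit.

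A minimum mean of 5 was applied to each gene, and 5022 fell below it. P-values were adjusted by the Benjamini-Hochberg method over 13921 genes in each comparison, and calls used an adjusted p of at most 0.05, with or without a fold of at least 2. The fit was tried on simulated data in which a small part of the genes differed, with ET-3 alone, and all libraries shared 1 dispersion. In the data here most genes were called and the DMSO pair differed by more, so the simulation does not cover that setting. Positions, exonic lengths and overlaps came from GENCODE M21 (GRCm38), matched by Ensembl identifier for 44 of 44 members, and start regions from RefSeq. Intervals of read ratios are exact at 95%. Members with a call of at least 2-fold, the G12/13 and Gq/11 genes and the most abundant member of each class were given in full, and the rest by range. The members and gene lists were chosen with earlier results of these data known. Alternatives covered the pseudocount (0.5 and 5), the filter (none and 20), the scaling, voom weights, a replicate block, 2 groups alone, treated pairs averaged, and each library left out in turn. Those for the pathway lists and for untested members were added after seeing the data. Python 3.11.15, numpy 2.4.6, pandas 2.3.3, scipy 1.17.1 and matplotlib 3.10.9 were used for tables and plots.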

Additional observations from a re-analysis of the deposited data

Results flagged for a closer look

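The effects of the 2 ligands differed for 4 genes when NT libraries were tested directly against ET-3 libraries. The log2 difference, NT minus ET-3, was -0.33 for Gnas, -0.28 for Gnai2, -0.23 for Gnb1 and -0.26 for Rgs16. When any 1 library was left out, no tested gene was called between the ligands, so the loss of these 4 calls is not particular to them.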

How the results depend on the processing

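Direction was kept wherever a call was made, under every alternative run. With each treated pair averaged, which leaves 1 sample in a ligand group, fewer members were called with either ligand. The same held for all tested genes. At 2-fold or more, the number higher with ET-3 went from 6 to 2 with a pseudocount of 5, a minimum mean of 20 or averaged pairs. With NT it went from 4 to 2 for higher and from 5 to 3 for lower with a minimum mean of 20, which leaves fewer genes to test, or averaged pairs. Scaling each library to its total raised the number higher with NT to 16. The 4 genes lower with NT than with ET-3 became 1 with a pseudocount of 0.5, where calls among all tested genes went from 375 to 185. Without a filter, with averaged pairs or with only the ligand groups, no tested gene was called between the ligands.

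With 1 library left out, in which case the lone library of a group is assumed to vary like the others, the counts were 7 to 12 higher and 10 to 11 lower with ET-3, 8 to 11 higher and 9 to 12 lower with NT, and 0 lower with NT than with ET-3. At 2-fold they were 3 to 6 and 5 to 6 with ET-3 and 3 to 5 and 4 to 5 with NT.

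Replicate numbers did not pair the libraries, with correlations of deviations of -0.008, -0.07 and -0.022. With the replicate number as a block, 103 of 108 differences kept their side of the threshold and 5 lost it. These were Rgs10 with NT and the 4 genes lower with NT than with ET-3. Between the ligands, 0 of all tested genes were called with this block.

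Shares of a pool depend on the correction for length. Without it, in the order DMSO, ET-3 and NT, the Gα pool held 14.0%, 18.9% and 20.6% G12/13, 36.1%, 37.6% and 37.3% Gi/o, 17.0%, 19.1% and 21.0% Gq/11, and 32.9%, 24.3% and 21.2% Gs. The Gβ pool held 53.5%, 49.4% and 47.1% Gnb1 and 14.4%, 25.2% and 28.0% Gnb4. Leaving out 1 library ended calls of genes with low values, such as Gng4, Gng10 and Rgs7, and of genes with high values, such as Gna11, Gna13 and Gnb1. The counting error of 8.84% to 10.9% at a value of 100 limits what can be shown for low values.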
